A study of Mus musculus with 28 samples.

Results

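Synaptic vesicle and SNARE genes were followed by RNA-seq in 28 frontal cortices of male C57Bl/6 mice, with 1 library for each animal. They were chosen by symbol: the numbered synaptotagmins (Syt), syntaxins (Stx), syntaxin binding proteins (Stxbp), vesicle-associated membrane proteins (Vamp), complexins (Cplx) and SNAP proteins (Snap), synapsins Syn1 to Syn3, Rab3a to Rab3d, Sv2a to Sv2c and synaptophysin (Syp). The rule found 62 rows with 61 symbols among 15263 genes in all, since Rab3a had 2 rows. All 62 rows were in both deposited tables, and none was removed by the filter on low counts. The rule used names and no measured value. It therefore also took Snap91, which encodes the clathrin adaptor AP180 and is no SNARE, and syntaxins of the Golgi (Stx5a), the endoplasmic reticulum (Stx18) and the autophagosome (Stx17).

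Of these animals, 8 had undergone chronic social stress (CSS) and 8 were their age-matched controls (CSS_control), all of them 21 weeks old. Another 6 had type 2 diabetes (T2D) and 6 were its controls (T2D_control), aged 30 or 31 weeks. CSS mice had lived in isolation for 7 weeks, with repeated social confrontations on each of the final 20 days. T2D mice had received streptozotocin at 75 mg per kg, a toxin of pancreatic beta cells, and 21 weeks of a high-fat diet with 43.2% of its energy as fat, so that the toxin and the diet cannot be told apart. The controls carried no treatment named in the labels, and no genetic change is named for any group.

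A synaptic vesicle fuses with the plasma membrane when the vesicle SNARE Vamp2 zips together with the plasma membrane SNAREs, a syntaxin and Snap25. Syntaxin binding proteins guide syntaxin, complexins clamp and activate the partly zipped complex, and synaptotagmins sense the calcium that starts fusion. Rab3 GTPases on the vesicle help it dock at the active zone, synapsins tether the reserve pool, and Sv2 proteins and synaptophysin are membrane proteins of the vesicle. Paralogues of the same families serve transport in the Golgi, endosomes and lysosomes of every cell.

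Summed counts per library lay between 15.2 and 21.9 M in CSS, 14.3 and 37.5 M in CSS_control, 14.3 and 22.7 M in T2D and 12.1 and 21.6 M in T2D_control (M stands for 1e6). The libraries were of total RNA after ribosomal depletion, and the RNA integrity number lay between 8.5 and 10. Cortical markers were present in every group: Slc17a7, the vesicular glutamate transporter of cortical excitatory neurons, had group medians of 549 CPM in CSS, 563 CPM in CSS_control, 548 CPM in T2D and 652 CPM in T2D_control. Striatal genes were present too, Drd1 with medians of 91.6 CPM in CSS, 84.7 CPM in CSS_control, 108 CPM in T2D and 61.9 CPM in T2D_control. CPM are counts per M counts of the library, scaled by TMM within each cohort. In bulk tissue, fewer cells of a type and less RNA per cell cannot be told apart.

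The 62 rows together took 1.20 ± 0.0696% of the counts in CSS, 1.22 ± 0.0554% in CSS_control (SD, n = 8 each), 1.18 ± 0.122% in T2D and 1.24 ± 0.0715% in T2D_control (SD, n = 6 each). Most of the members were well covered. In CSS 25 rows exceeded 100 CPM and 5 lay under 10 CPM, against 26 and 5 in CSS_control, while in T2D 25 exceeded 100 CPM and 4 lay under 10 CPM, against 26 and 6 in T2D_control. The 5 most abundant rows held 45.0% of the members' CPM in CSS, 46.7% in CSS_control, 43.6% in T2D and 45.7% in T2D_control. The coefficient of variation between libraries of a group had a median over members of 11.01% in CSS, 9.78% in CSS_control, 15.5% in T2D and 11.4% in T2D_control, so this spread was largest in the diabetic group.

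On the scale of CPM per kb of the longest coding transcript, the level of the neuronal SNARE Snap25 was the highest of the 61 genes in all 4 groups. Its level was 994 ± 143 CPM per kb in CSS, 1075 ± 78.4 in CSS_control (SD, n = 8 each), 967 ± 213.9 in T2D and 1123 ± 127 in T2D_control (SD, n = 6 each). The fast calcium sensor Syt1 came next, at 273 ± 30.4 in CSS, 285 ± 15.7 in CSS_control, 274 ± 41.7 in T2D and 288 ± 14.1 CPM per kb in T2D_control. Syp followed at 229.9 ± 18.2 in CSS, 249 ± 13.5 in CSS_control, 228 ± 27.8 in T2D and 232 ± 22.5 CPM per kb in T2D_control. The gap between Snap25 and Syt1 was larger than their SDs in every group, whereas in T2D the gap between Syt1 and Syp was of the size of the SD of Syt1.

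At the other end of that order, Vamp5 was the lowest in all 4 groups, with 0.582 ± 0.218 CPM per kb in CSS, 0.571 ± 0.176 in CSS_control, 0.471 ± 0.188 in T2D and 0.569 ± 0.175 in T2D_control. Its estimated count was as low as 10.2 in a library, the lowest of all members. The order depends on the transcript length taken: with the median coding transcript of a gene in place of the longest, Snap25 and Vamp5 kept the first and last rank in every group, while Syt1 had rank 4 in all 4 groups, behind Syp and Snap47.

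**Figure D1:**
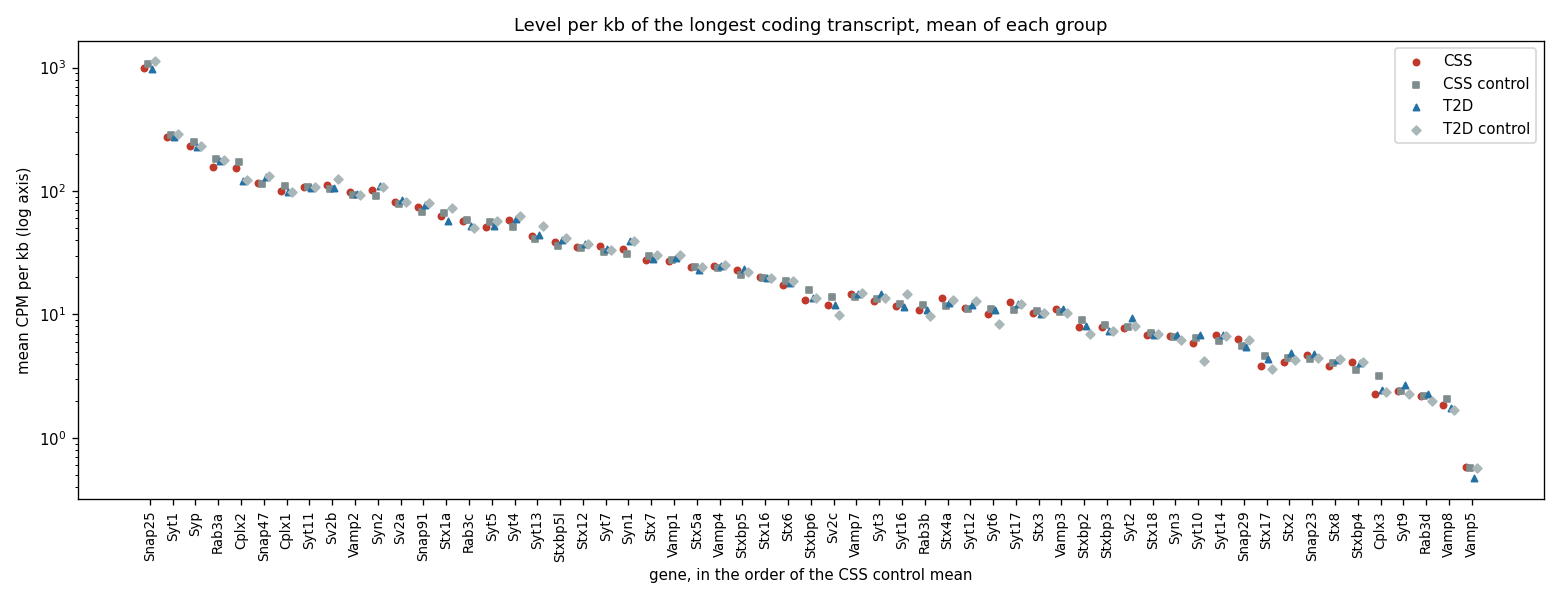
Mean level of 59 of the 61 genes (chromosome row for Rab3a) in CPM per kb of the longest coding transcript, on a log axis, in the order of the CSS_control mean; red circles are CSS, grey squares CSS_control, blue triangles T2D and light diamonds T2D_control. The 4 symbols of most genes nearly coincide, and the genes run from Snap25 at 967 to 1123 down to Vamp5 at 0.471 to 0.582 CPM per kb.

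Ratios between paralogues were set side by side, and the libraries of all 4 groups overlapped in each ratio given here. The ratio of Vamp2, the main vesicle SNARE of the forebrain, to Vamp1 had a median of 2.59 in CSS, 2.60 in CSS_control, 2.52 in T2D and 2.13 in T2D_control. The ratio of Snap25 to its widely expressed paralogue Snap23 had a median of 176 in CSS, 191 in CSS_control, 148 in T2D and 197 in T2D_control. These are ratios of CPM, not corrected for transcript length, so they are compared only between groups. The CSS and T2D cohorts differed in age and in table, and Cplx2 to Cplx1 had medians of 3.46 in CSS and 3.55 in CSS_control but 2.72 in T2D and 3.09 in T2D_control.

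Social stress was compared with its own controls to ask which members of the release machinery changed. In edgeR's quasi-likelihood test with Benjamini-Hochberg adjustment over all 15097 genes of the table, 3 of 62 rows passed 0.05, whereas 4.52% of all genes did. Of these 1 was higher (2.11% of all genes) and 2 were lower (2.42% of all genes), a share near the background. They were the chromosome row of Rab3a and Stxbp6, both lower in CSS, and a second row of Rab3a, higher in CSS. At an unadjusted p under 0.05, 10 rows were higher (11.0% of all genes) and 8 lower (10.5% of all genes). The median log2 fold change over the 62 rows was -0.0017, against 0.0054 over all genes, with 31 rows above 0 and 31 below. Of all genes 7741 were above 0 and 7356 below. The 95% interval of the log2 fold change lay within 0.5 of 0 for 57 of 62 rows, so for most members a change much beyond that size was outside the interval.

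**Figure D2:**
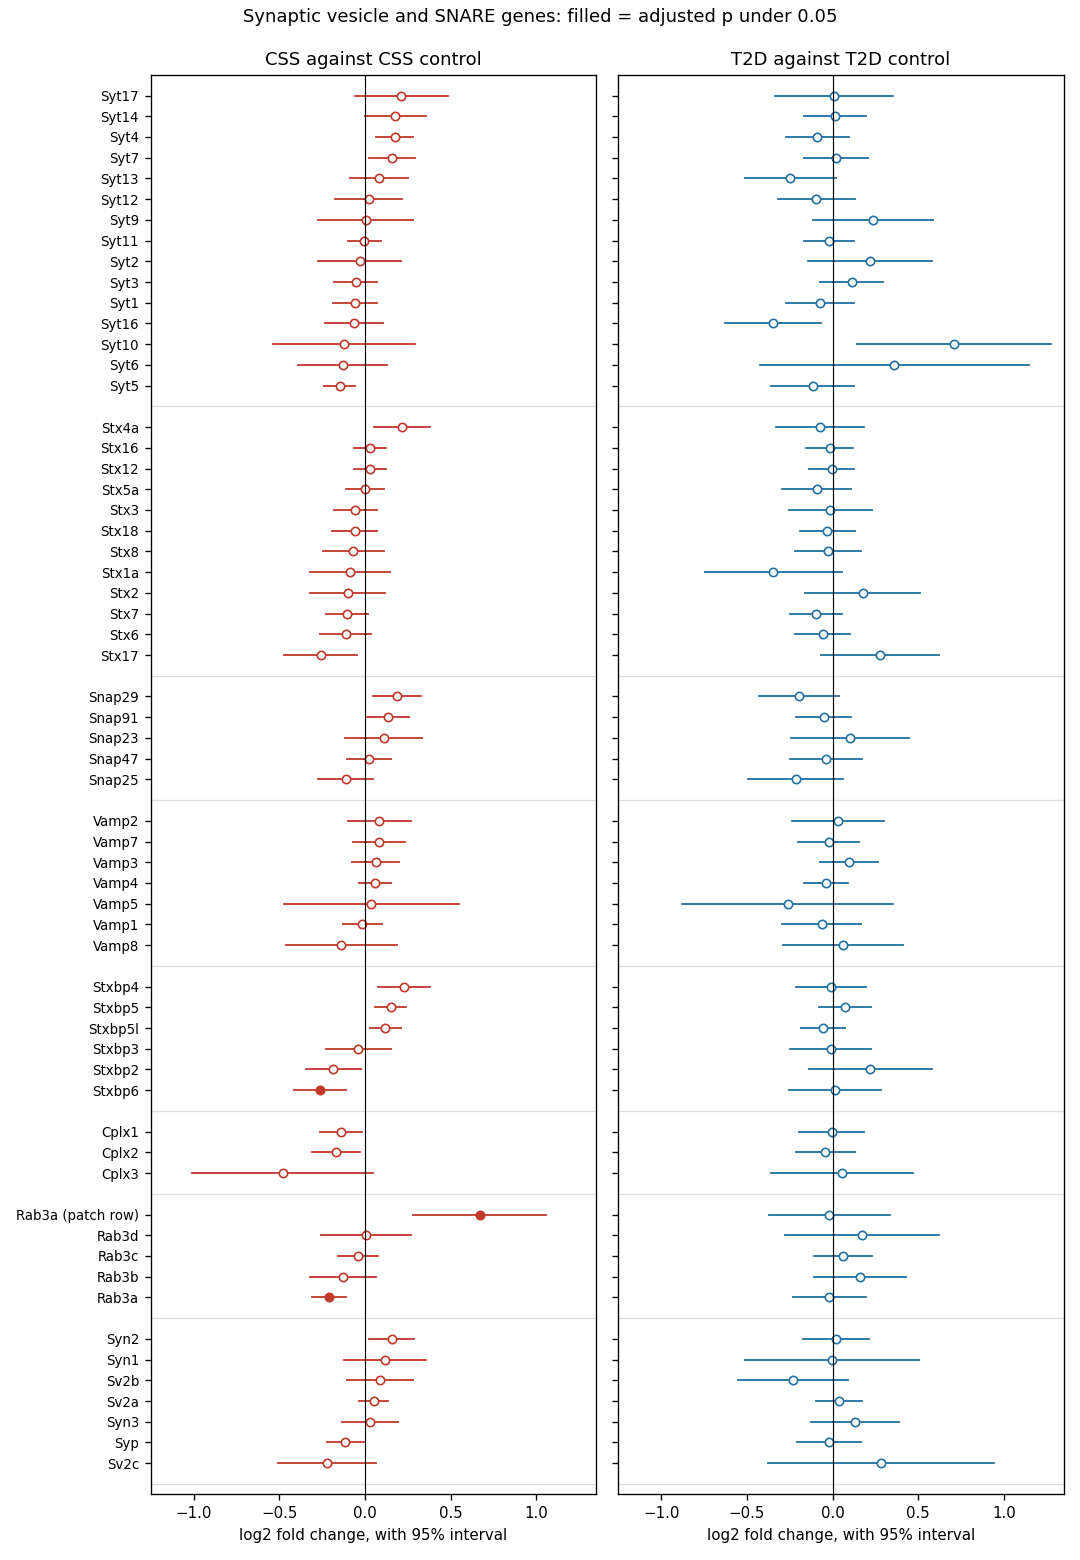
Log2 fold change of 60 of the 62 rows, each with its 95% interval, CSS against CSS_control on the left and T2D against T2D_control on the right, grouped by family; filled points passed an adjusted p of 0.05. Rab3a, its second row and Stxbp6 are the filled points on the left, and there is none on the right.

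Rab3a encodes the Rab3 GTPase that is most abundant as a protein on brain vesicles. The order by RNA depended on the scale. In CPM Rab3c was higher than Rab3a, with means of 480 in CSS and 494 in CSS_control. Per kb of the longest coding transcript it was lower, at 56.9 against 156 for Rab3a in CSS and 58.5 against 181 in CSS_control. The chromosome row of Rab3a, ENSMUSG00000031840 at chr8:70754679-70758677 on the plus strand of GRCm38, had 213 CPM in the lowest, 245 CPM at the median and 265 CPM in the highest CSS library, against 269, 279 and 301 CPM in CSS_control. Every CSS library lay below every control library, and this was the only row of the 62 whose groups did not overlap, whereas 0.609% of all genes did not. Rab3a averaged 243 ± 16.7 CPM in CSS and 282 ± 11.7 CPM in CSS_control (SD, n = 8 each), a log2 fold change of -0.21 ± 0.047 (SE; edgeR adjusted p = 0.0196). In T2D the same row averaged 273 ± 45.4 CPM, and in T2D_control 277 ± 25.4 CPM (SD, n = 6 each; edgeR adjusted p = 0.981).

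The second row of Rab3a, ENSMUSG00000111277, carries the same symbol and lies on a patch, an alternative copy of a stretch of the reference, so that reads of the gene can be assigned to either row. This patch row had 23.3 CPM in the lowest, 28.5 CPM at the median and 38.1 CPM in the highest CSS library, against 9.26, 20.9 and 24.9 CPM in CSS_control. The groups overlapped between 23.3 and 24.9 CPM, and controls 1 to 3, at 9.26, 15.0 and 9.53 CPM, were below all others. It averaged 28.8 ± 5.001 CPM in CSS and 18.1 ± 6.10 CPM in CSS_control (SD, n = 8 each), a log2 fold change of 0.67 ± 0.19 (SE; edgeR adjusted p = 0.0476). The rows had opposite signs, and the split of Rab3a between them differed: the patch row held 8.07% to 13.5% of the summed level in CSS, against 3.02% to 8.08% in CSS_control, 6.38% to 11.3% in T2D and 7.56% to 10.6% in T2D_control.

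With the rows of Rab3a added before the test, the gene had 272 ± 15.0 CPM in CSS and 299.9 ± 10.8 CPM in CSS_control (SD, n = 8 each). Its log2 fold change was then -0.14 ± 0.042 (SE; 95% interval -0.23 to -0.052), and its edgeR adjusted p of 0.0625 missed the threshold. The summed values of the groups overlapped, CSS between 246 and 288 CPM and CSS_control between 281 and 316 CPM. With the sum in place of the rows, 1 member, Stxbp6, passed. In T2D against T2D_control the log2 fold change of the summed gene was -0.020 ± 0.10 (SE; edgeR adjusted p = 0.981).

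**Figure D3:**
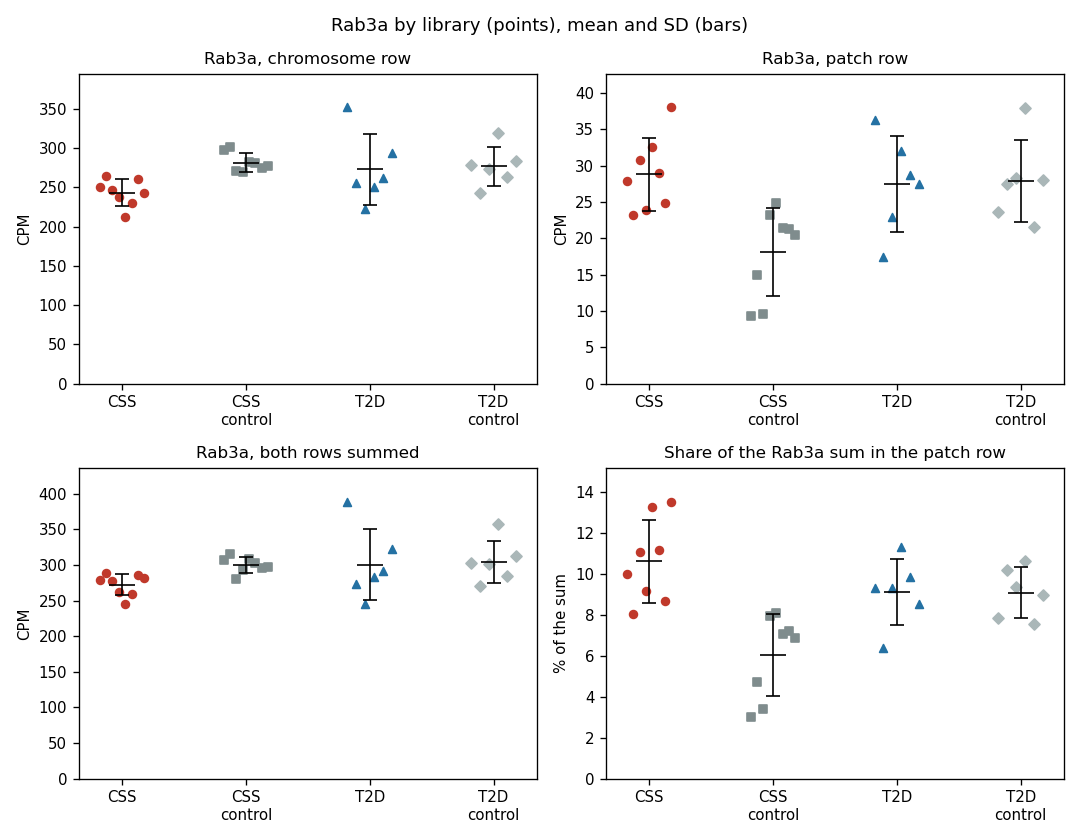
Rab3a in each library (points) with mean and SD (bars) for CSS, CSS_control, T2D and T2D_control: CPM of the chromosome row, of the patch row, of their sum, and the percentage of the sum in the patch row. CSS lies below CSS_control without overlap in the chromosome row alone, and in the patch share 3 controls sit at 3.02% to 4.74%.

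Those 3 controls carried title codes with the number 1. The titles of the social stress cohort hold a code whose first number runs from 1 to 4 in CSS and from 1 to 3 in CSS_control; the labels do not say what it stands for. In the 4 controls with number 1 the patch row of Rab3a held 3.02% to 7.94% of the sum (median 4.07%), and in the 4 with number 2 or 3 it held 6.87% to 8.08% (median 7.14%). Against the 4 controls of number 2 or 3 alone, the chromosome row of Rab3a had a log2 fold change of -0.20 (edgeR adjusted p = 0.233), the patch row 0.38 (0.241) and Stxbp6 -0.14 (0.424), and no gene of the whole table passed edgeR's test (1971 at an unadjusted p under 0.05). With the number as a factor in the fit, the values were -0.17 (edgeR adjusted p = 0.238), 0.54 (0.335) and -0.24 (0.299). No control carried number 4, so the CSS libraries of that number did not inform this contrast. CSS 1 alone carried number 1 in CSS, and CSS_control 8 alone number 3 in the controls. Number and stress are thus largely confounded, and this fit rests on fewer libraries. Against the 4 controls of number 1 alone, the values were -0.23 (edgeR adjusted p = 0.0384), 1.02 (0.0143) and -0.38 (0.0061). In that fit 8 members passed, beside 1130 genes of the whole table, against 683 genes with all controls. Every value kept its sign.

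Stxbp6 encodes amisyn, a soluble SNARE-motif protein that binds syntaxin and Snap25 in place of a vesicle SNARE and slows assembly of the fusion complex. The gene, at chr12:44852484-45074709 on the minus strand of GRCm38, had 52.5 CPM in the lowest, 59.5 CPM at the median and 64.0 CPM in the highest CSS library, against 54.4, 71.9 and 89.3 CPM in CSS_control. The groups overlapped through the lowest control, at 54.4 CPM. It averaged 59.4 ± 3.68 CPM in CSS and 71.3 ± 9.70 CPM in CSS_control (SD, n = 8 each), a log2 fold change of -0.26 ± 0.073 (SE; edgeR adjusted p = 0.0457). All 8 CSS libraries lay below the control mean.

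The calls of Stxbp6 and of the patch row of Rab3a depended on single libraries, that of the chromosome row did not. Leaving out each of the 16 libraries in turn, the chromosome row of Rab3a passed in 16 of 16 fits (edgeR adjusted p 0.0128 to 0.0476), with log2 fold changes between -0.23 and -0.19. Stxbp6 passed in 3 of 16 fits, those without CSS 2, CSS_control 7 or CSS_control 8, with edgeR adjusted p between 0.0138 and 0.0886. The patch row of Rab3a also passed in 3 of 16, those without CSS 2, CSS_control 5 or CSS_control 6, with edgeR adjusted p between 0.0417 and 0.0958.

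The promoter windows of Rab3a and Stxbp6, the genes with a row lower in CSS, are given from RefSeq (GRCm38.p6) as 300 bases from 250 before to 50 after the annotated start, 5′ to 3′ on the strand of the gene. Capitals mark the GC box GGGCGG on either strand, a binding motif of Sp1 factors. Rab3a has 2 windows, from separate annotated starts on the plus strand: the one printed lies at chr8:70754453-70754752 and holds 2 GC boxes, and the other, at chr8:70754852-70755151, holds none of the motifs searched. The single Stxbp6 window lies at chr12:45074434-45074733 on the minus strand and holds none of the motifs searched.
Rab3a: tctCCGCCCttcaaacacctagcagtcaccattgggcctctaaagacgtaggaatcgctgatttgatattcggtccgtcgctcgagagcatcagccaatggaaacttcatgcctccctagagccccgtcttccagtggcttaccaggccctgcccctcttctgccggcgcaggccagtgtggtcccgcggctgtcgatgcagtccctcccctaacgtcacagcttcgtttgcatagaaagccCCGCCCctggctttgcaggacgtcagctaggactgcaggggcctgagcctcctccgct
Stxbp6: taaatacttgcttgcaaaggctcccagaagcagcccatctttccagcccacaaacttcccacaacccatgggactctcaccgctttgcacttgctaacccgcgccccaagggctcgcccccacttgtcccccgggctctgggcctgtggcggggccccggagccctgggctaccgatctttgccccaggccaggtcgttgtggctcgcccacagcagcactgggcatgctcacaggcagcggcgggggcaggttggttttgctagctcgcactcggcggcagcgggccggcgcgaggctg
RefSeq windows were matched for 48 of the 61 symbols, with 62 windows in all since some genes have several starts. A GC box was found in 67.7% of the members' windows, against 35.7% of the 32851 windows of all genes. The latter cover 27025 symbols, so they include genes that were not measured here. Some windows of the same gene overlap, as in Syt6, and are not separate observations. The E box CACGTG was found in 12.9%, against 7.15% of all, and TATAAA in 8.06% against 13.6%. The cAMP response element TGACGTCA was found in 3.23% (2 windows) against 1.79%. The letters TTCAGCACC of the RE1 element were found in 1.61% (1 window) against 0.371%. Both strands were searched, and no motif is contained in another. The members' windows had a median GC content of 63%, against 52.7%, and a median of 19 CpG, against 7, and the GC box is itself made of G and C.

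Among the plasma membrane and vesicle SNAREs no row passed edgeR's test in CSS. Snap25 averaged 2103 ± 302 CPM in CSS and 2275 ± 166 CPM in CSS_control (SD, n = 8 each), a log2 fold change of -0.11 with a 95% interval of -0.27 to 0.045. For Stx1a the log2 fold change was -0.088 (interval -0.32 to 0.14). Vamp2 gave 0.084 (-0.10 to 0.27) and Vamp1 -0.015 (-0.13 to 0.10). Each of these intervals spans 0. The signs were counted by symbol family, so they include Snap91 and the syntaxins of other compartments. Of the 13 syntaxins 9 had a negative and 4 a positive log2 fold change, of the 7 Vamp genes 2 and 5, and of the 5 Snap genes 1 and 4. Of all 15097 genes 7356 were negative and 7741 positive.

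Snap29 and Stx17 form, with Vamp8, the SNARE complex that fuses autophagosomes with lysosomes. Snap29 had 19.6 CPM in the lowest, 21.8 CPM at the median and 24.01 CPM in the highest CSS library, against 16.8, 18.9 and 22.7 CPM in CSS_control. All 8 CSS libraries lay above the control mean, the groups overlapped, and the log2 fold change of 0.18 ± 0.067 (SE) did not pass (edgeR adjusted p = 0.117). Stx17 averaged 22.1 ± 2.62 CPM in CSS and 26.5 ± 4.41 CPM in CSS_control (SD, n = 8 each), a log2 fold change of -0.26 ± 0.10 (SE; edgeR adjusted p = 0.143). Vamp8 averaged 3.87 ± 1.09 CPM in CSS and 4.26 ± 0.429 CPM in CSS_control, with a log2 fold change of -0.14 and an interval of -0.46 to 0.18.

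The syntaxin binding proteins held 3 of the members nearest to the threshold beside Stxbp6. Stxbp5 (tomosyn), which occupies syntaxin and Snap25 and holds back priming, had 188 CPM in the lowest, 202 CPM at the median and 229 CPM in the highest CSS library, against 172, 183.6 and 199 CPM in CSS_control. All 8 CSS libraries lay above the control mean, at a log2 fold change of 0.15 ± 0.044 (SE) that missed the threshold (edgeR adjusted p = 0.0574). Its paralogue Stxbp5l (tomosyn-2) gave 0.12 ± 0.043 (edgeR adjusted p = 0.115), and Stxbp4, a syntaxin 4 partner known from insulin-driven transport, 0.23 ± 0.073 (edgeR adjusted p = 0.0778). DESeq2 called all 3, at adjusted p of 0.0137 for Stxbp5, 0.0458 for Stxbp5l and 0.0407 for Stxbp4. Stxbp5 passed in 3 of 27 alternatives (adjusted p 0.0137 to 0.265), the others being RIN as a covariate and 1 surrogate variable.

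None of the 15 synaptotagmins passed edgeR's test in CSS. At an unadjusted p under 0.05, 2 were higher and 1 lower, against 11.0% higher and 10.5% lower of all genes. Syt5, a calcium-binding member, had 83.7 CPM in the lowest, 88.4 CPM at the median and 97.7 CPM in the highest CSS library, against 91.6, 98.6 and 106 CPM in CSS_control. Its log2 fold change was -0.15 ± 0.044 (SE; edgeR adjusted p = 0.0574), with all 8 CSS libraries below the control mean. Syt4, found on dense-core vesicles, gave 0.17 ± 0.052 (edgeR adjusted p = 0.0618) with 8 of 8 libraries above it. DESeq2 called both, Syt5 at an adjusted p of 0.0088 and Syt4 at 0.0221, as did the fit with 1 surrogate variable (edgeR adjusted p = 0.0442 and 0.0325). Syt5 passed in 6 of 27 alternatives (adjusted p 0.0088 to 0.273). For Syt1 the log2 fold change was -0.058 with an interval of -0.19 to 0.071, and the 15 genes ran from -0.15 (Syt5) to 0.21 (Syt17).

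All 3 complexins had a negative log2 fold change in CSS, as did 7356 of all 15097 genes, and none passed edgeR's test. At an unadjusted p under 0.05, 2 were lower, against 10.5% of all genes. Cplx1 averaged 217 ± 20.4 CPM in CSS and 239.6 ± 16.02 CPM in CSS_control (SD, n = 8 each; log2 -0.14, edgeR adjusted p = 0.165). Cplx2 averaged 753 ± 78.9 CPM in CSS and 846 ± 76.5 CPM in CSS_control (log2 -0.17, edgeR adjusted p = 0.149). Cplx3, at 6.49 ± 3.04 CPM in CSS and 9.05 ± 2.06 CPM in CSS_control, varied most between CSS libraries of all 62 rows, with a coefficient of variation of 46.9% and a log2 fold change of -0.48 ± 0.25 (SE; edgeR adjusted p = 0.276).

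The vesicle membrane and tethering proteins and the other Rab3 genes did not pass edgeR's test either. Syp averaged 596 ± 47.1 CPM in CSS and 645 ± 34.9 CPM in CSS_control (SD, n = 8 each; log2 -0.11, edgeR adjusted p = 0.204). Syn2 averaged 392.2 ± 30.6 CPM in CSS and 352 ± 36.6 CPM in CSS_control (log2 0.16, edgeR adjusted p = 0.155). The log2 fold change was 0.12 for Syn1 and 0.05 for Sv2a, and between -0.13 and 0.005 for Rab3b, Rab3c and Rab3d. Snap91, the AP180 adaptor, gave 0.13 ± 0.059 (SE; edgeR adjusted p = 0.192).

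Lists of partners of the members were counted, 6 in all, beside them in CSS, where 2.11% of all genes were higher and 2.42% lower. Of 27 genes of the active zone and of priming 2 were lower and none was higher: Lin7b (log2 -0.29 ± 0.081, edgeR adjusted p = 0.0465) and Lin7c (-0.18 ± 0.050, 0.0417), scaffold proteins that work with Cask. Of 31 genes of vesicle endocytosis 1 was lower, Cltb, a clathrin light chain, at 109 ± 4.58 CPM in CSS and 130.5 ± 6.71 CPM in CSS_control (SD, n = 8 each; log2 -0.26 ± 0.043, edgeR adjusted p = 0.0066). Of 15 measured regulators of Rab3 and Rab27 1 was higher, Rab3gap2, a subunit of the complex that makes Rab3 hydrolyse GTP, at 132.2 ± 6.24 CPM in CSS and 119 ± 6.18 CPM in CSS_control (log2 0.16 ± 0.044, edgeR adjusted p = 0.0477). None passed of 11 genes of SNARE disassembly and chaperones, 19 other vesicle membrane proteins and 17 measured genes of other SNAREs and Sec1 family proteins in edgeR's test. At an unadjusted p under 0.05 these lists held 0 higher and 2 lower, 2 higher and 0 lower, and 1 higher and 3 lower genes, against 11.0% higher and 10.5% lower of all genes. The list medians lay between -0.041 and 0.062 on the log2 scale.

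Markers of cell types were counted in the same cohort, against the same 2.11% higher and 2.42% lower of all genes. In CSS 5 of 13 microglial markers were lower (Csf1r, C1qa, C1qb, C1qc and Ctss), with a summed level of 208 to 405 CPM in CSS, against 388 to 450 CPM in CSS_control. Among inhibitory neuron markers 2 of 14, Sst and Npy, were lower, and among excitatory markers 1 of 14, Rasgrf2, was higher. Higher in CSS were also 2 of 12 astrocyte, 2 of 9 oligodendrocyte precursor, 2 of 12 endothelial and 1 of 12 meningeal fibroblast markers, and none of 12 oligodendrocyte, 13 striatal, 8 thalamic or 7 olfactory bulb markers passed. The summed excitatory markers had a median of 2326 CPM in CSS and 2274 CPM in CSS_control, and the inhibitory ones 1213 CPM in CSS and 1218 CPM in CSS_control. Such sums weigh abundant genes most. By gene, 10 of 14 inhibitory markers had a negative log2 fold change (median -0.086) and 8 of 14 excitatory ones (median -0.012). Of all 15097 genes 7356 were negative. The part of these markers in the values of Rab3a and Stxbp6 was not tested.

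No member passed the threshold in induced diabetes. In T2D against T2D_control 0 of 62 rows passed in edgeR's quasi-likelihood test, as did 0% of all 15054 genes. DESeq2 also called 0 of 62 rows and 4 genes of the table, and limma voom 0 and 0. At an unadjusted p under 0.05, 1 row was higher (2.97% of all genes) and 1 lower (2.87% of all genes). No row separated the groups without overlap, whereas 0.146% of all genes did. The median log2 fold change over the rows was -0.015, against 0.0021 over all genes, with 25 rows above 0 and 37 below. Of all genes 7646 were above 0 and 7408 below. The 95% interval lay within 0.5 of 0 for 47 of 62 rows, fewer than under stress.

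Syt10, a calcium sensor known from mouse olfactory bulb neurons, where it acts in the release of IGF-1, was the row with the smallest p in T2D. It had 7.28 CPM in the lowest, 10.9 CPM at the median and 23.8 CPM in the highest T2D library, against 5.24, 7.23 and 10.7 CPM in T2D_control. One library, T2D 3, stood far above all others. The log2 fold change was 0.71 ± 0.26 (SE; edgeR adjusted p = 0.825), and without T2D 3 it was 0.42. The 6 measured olfactory bulb markers all had a positive log2 fold change in T2D, with a median of 1.42, and none passed. At an unadjusted p under 0.05, 4 of these markers were higher, against 2.97% of all genes. Their score, the mean log2 difference from the T2D_control mean, was 2.68 in T2D 3 and -0.21 to 0.77 in the other T2D libraries, against -0.58 to 0.37 in T2D_control. The bulb score also varied widely in the stress cohort. Taken from the CSS_control mean over 7 measured markers, it ran from -1.11 to 1.09 in CSS and -1.34 to 1.77 in CSS_control. Eomes and Tbx21, markers of the bulb's projection neurons, were not among the genes of either table. In T2D the score of 13 striatal markers ran from -1.49 to 1.22, against -1.28 to 1.06 in T2D_control, beside Sv2c at 41.5 to 175 CPM in T2D, against 57.5 to 146 CPM in T2D_control. Whether tissue of neighbouring regions set the values of these members was not tested.

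Syt16, an atypical synaptotagmin, had 61.3 CPM in the lowest, 93.9 CPM at the median and 116 CPM in the highest T2D library, against 97.5, 119.6 and 139.7 CPM in T2D_control. All 6 T2D libraries lay below the control mean, the groups overlapped, and the log2 fold change of -0.35 ± 0.13 (SE) did not pass (edgeR adjusted p = 0.825). Syt13, another atypical member, gave -0.25 ± 0.12 and Stx1a -0.35 ± 0.19, both at an edgeR adjusted p of 0.825. These sizes depended on the fit. With 1 surrogate variable the log2 fold change was -0.13 for Syt16, -0.028 for Syt13, -0.031 for Stx1a and 0.27 for Syt10. With RIN as a covariate it was -0.36, -0.21, -0.27 and 0.72 in the same order. Snap25 averaged 2047 ± 453 CPM in T2D and 2376 ± 269 CPM in T2D_control (SD, n = 6 each), a log2 fold change of -0.21 with an interval of -0.49 to 0.064. The intervals were -0.27 to 0.13 for Syt1, -0.24 to 0.30 for Vamp2, -0.21 to 0.17 for Syp and -0.51 to 0.50 for Syn1. The library T2D 1 was high in several members together: it had the highest level of T2D in Rab3a, Syn1, Vamp2 and Snap25, and the members took 1.37% of its counts, against 1.01% to 1.26% in the other T2D libraries. In T2D no gene of the 6 partner lists passed edgeR's test. At an unadjusted p under 0.05, 3 of their genes were higher and 3 lower, against 2.97% higher and 2.87% lower of all genes. These lists held 27, 11, 19, 31, 17 and 15 measured genes.

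**Figure D4:**
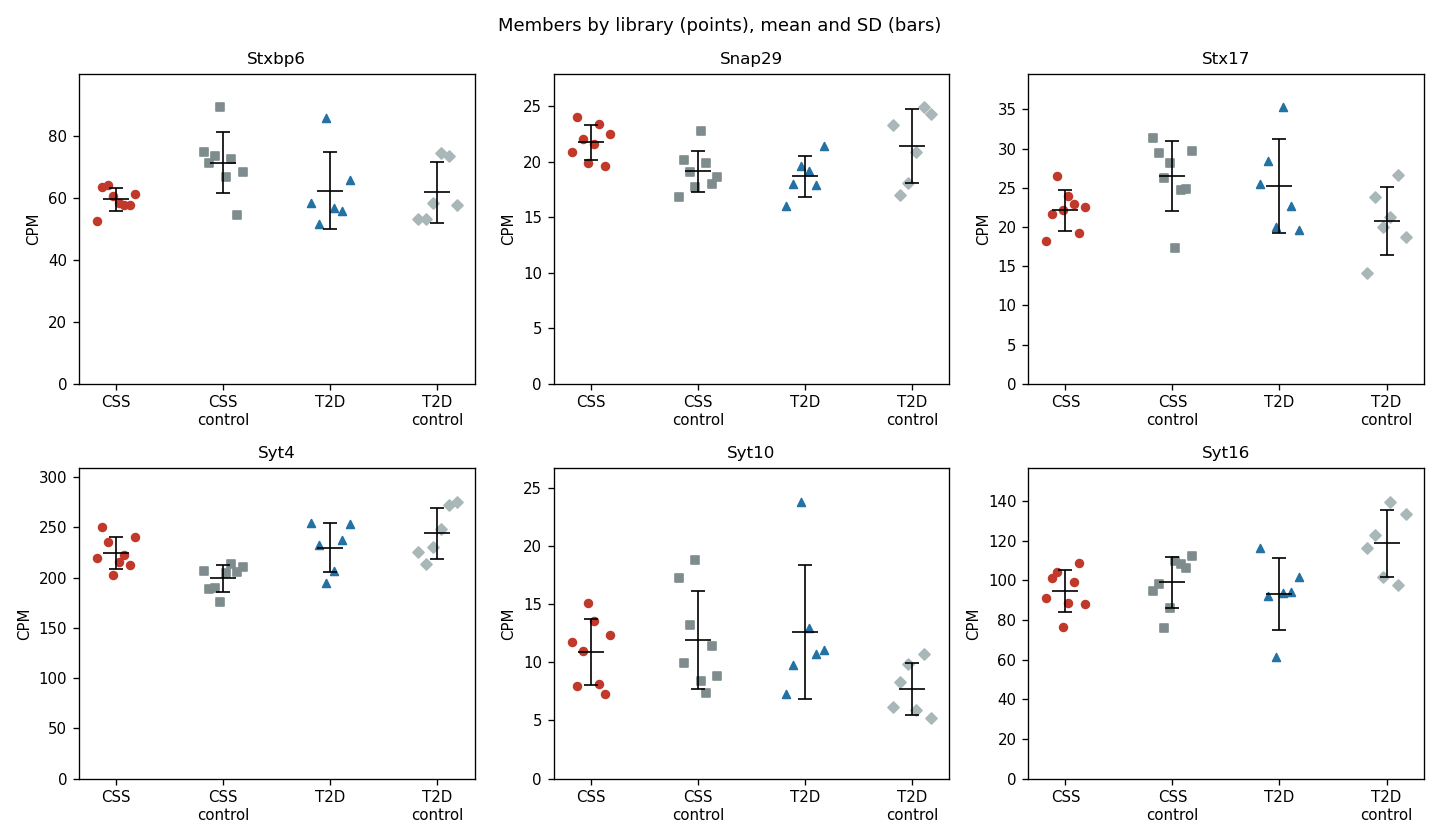
CPM of 6 members in each library (points) with mean and SD (bars) for CSS, CSS_control, T2D and T2D_control. The means of Snap29 and Syt4 are higher in CSS than in CSS_control and those of Stxbp6 and Stx17 lower, with Stxbp6 alone past the threshold, and the single point near 24 CPM in the Syt10 panel is T2D 3.

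The difference between the responses was tested as the CSS change minus the T2D change, over the 14888 genes of both tables, with each cohort measured against its own controls. In edgeR's quasi-likelihood test 0 of 62 rows passed, whereas 0.0806% of all genes did (12 genes). DESeq2 and limma voom also called 0 of 62. At an unadjusted p under 0.05, 5 rows had a positive difference (6.00% of all genes) and 3 a negative one (6.36% of all genes), and the median difference was 0.0047, against -0.0056 over all genes. The smallest p was that of Snap29: its difference was 0.38 ± 0.12 on the log2 scale (SE; edgeR adjusted p = 0.208). All 8 CSS libraries lay above the mean of CSS_control, and all 6 T2D libraries, at 16.04 to 21.4 CPM, lay below the mean of T2D_control, whose libraries ran from 17.0 to 24.9 CPM. All libraries lay on 1 side of the control mean in 8 of 62 rows in CSS and 2 in T2D. The share over all genes was not computed. Rows picked by a small p tend to have such sides, so they are no separate support. Stx17, the autophagosomal partner of Snap29, differed in the other direction, by -0.54 ± 0.19 (edgeR adjusted p = 0.243), with 25.2 ± 5.97 CPM in T2D and 20.7 ± 4.32 CPM in T2D_control (SD, n = 6 each).

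Of the members called under stress, the chromosome row of Rab3a had a difference of -0.20 ± 0.11 (log2, SE; edgeR adjusted p = 0.45), its patch row 0.68 ± 0.27 (0.301) and Stxbp6 -0.28 ± 0.15 (0.432). With the rows of Rab3a summed, the difference was -0.13 ± 0.10 (SE; edgeR adjusted p = 0.651). Stxbp6 averaged 62.3 ± 12.3 CPM in T2D and 61.7 ± 9.84 CPM in T2D_control (SD, n = 6 each). Syt4 differed by 0.25 ± 0.10, Stxbp5l by 0.17 ± 0.065 and Syt10 by -0.84 ± 0.34 on the same scale, with edgeR adjusted p of 0.288, 0.295 and 0.315. The changes of the rows of Rab3a, of their sum and of Stxbp6 in the stress cohort are thus not shown to differ from those in diabetes.

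Exons of 18 members overlap those of another gene, 17 of them on the opposite strand, and for 6 members the overlap exceeds 10% of the exon bases. Among the members described, these are Snap47 (11.6%, with Jmjd4), Syp (16.8%, with the antisense gene Gm14703) and Syt4 (14.5%, with the antisense gene Gm26658), whereas it is 1.30% for Rab3a and Stxbp6 has none. The kit marks strand, but whether the counting used it is not given in the sources used here, so reads of such partners may not be told apart. Vamp7 lies on an unplaced scaffold of the assembly.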

How the data were processed

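The authors deposited, per cohort, a table of estimated counts per gene, whose values need not be whole; Salmon 1.1.0 and the build mm10 are named in the submitters' processing notes. Those notes, as given here, do not state length scaling, strand use or the filter behind the deposited gene lists. The values were rounded and tested in R 4.3.3 with edgeR 4.0.16 (default filter, TMM scaling, robust quasi-likelihood test) over all genes of a table, with Benjamini-Hochberg adjustment and a threshold of 0.05. Standard errors are the log2 fold change divided by the square root of F, with 95% intervals from the same fit. The CSS change minus the T2D change was fitted over all 28 libraries and the genes of both tables. The fit was tested on simulated data with changes larger than those of Stxbp6 and the chromosome row of Rab3a, so changes of their size were not examined. Libraries are separate mice. Alternatives used DESeq2 1.42.0, limma 3.58.1 voom, sva 3.50.0, RLE scaling, a filter at 2 CPM, RIN, the title code, 1 fit of all libraries, a replicate block, leaving out each library, and, added after seeing the data, the rows of Rab3a summed. Positions and transcript lengths are from GENCODE M21 (GRCm38). Members, lists and the rule for named genes were chosen with earlier results of these data known. The rule named members past the threshold, the 5 of smallest p per comparison and a fixed set of core release genes; the remaining ones were named within their families, after their values were seen. Counts cover all members; the values of 2 are not reported here. Figures used Python 3.11.15 and matplotlib 3.10.9.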

Additional observations from a re-analysis of the deposited data

Results flagged for a closer look

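A library stood apart from the rest of its group by Dixon's test at its 95% critical value in 5 of 100 combinations of a group and 1 of the 25 named members, about as many as chance gives (about 1 in 20). In T2D 1, Syn1 was at 238 CPM, against 91.1 to 124 CPM in the other T2D libraries. The same library had Vamp2 at 282 CPM, against 183 to 202 CPM. In T2D 3, Syt10 was at 23.8 CPM, against 7.28 to 12.97 CPM in the other T2D libraries. In CSS_control 6, Syn2 was at 433 CPM, against 319 to 363 CPM in the other controls, and Syp at 716 CPM, against 606 to 655 CPM. None of these 5 members passed in any comparison as reported, but without CSS_control 6 Syn2 passed in CSS (log2 0.20, edgeR adjusted p = 0.0346; 0.0254 to 0.765 over the alternatives), 1 of 4 members then called.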

How the results depend on the processing

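No result reversed its sign where it was called. Members passing in CSS, 3 as reported, were 8 with DESeq2, 6 with 1 surrogate variable, 1 with the rows of Rab3a summed, 1 with all 28 libraries in 1 fit, 8 against controls of title code number 1, 0 against those of number 2 or 3 (10 at an unadjusted p under 0.05) and 0 with the number as a factor (13 unadjusted). Leaving out 1 library gave 1 to 4. All genes passing in CSS, 683 as reported, rose and fell too: 1313 with DESeq2 and 1001 with 1 surrogate variable. They were 664 with the rows of Rab3a summed and 506 with all 28 libraries in 1 fit. Against controls of number 1 they were 1130, against number 2 or 3 0 (1971 unadjusted), and with the factor 2 (2006 unadjusted). Without 1 library they were 222 (without CSS 6) to 794. In T2D DESeq2 called 4 genes and no member, and 0 passed in each fit without 1 library. For the CSS change minus the T2D change, 12 genes as reported became 130 with DESeq2, and 0 with limma voom, with the filter at 2 CPM, with RIN and with 1 surrogate variable, and 0 to 32 without 1 library; members stayed at 0 under all of these. The cause of these shifts was not tested. Calls gained with DESeq2 were Syt4, Syt5, Stxbp4, Stxbp5 and Stxbp5l, and with 1 surrogate variable Syt4, Syt5 and Stxbp5; Syt5 was also gained with the filter at 2 CPM (edgeR adjusted p = 0.0428) and Stxbp5 with RIN (0.0483). Calls lost, by edgeR adjusted p: Rab3a with all libraries in 1 fit (0.0732); Stxbp6 in that fit (0.113) and with voom (limma adjusted p 0.0618); the patch row with RIN (0.0604).

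With the replicate number as a block (replicate block), members passing were 2 in CSS, with Stxbp6 lost at an edgeR adjusted p of 0.0601, 0 in T2D and 0 for the difference. All genes passing were 478, 0 and 32. Same-numbered libraries of the groups did not consistently deviate together. The correlation exceeded 0.1 in 3 of 8 pairs (-0.16 to 0.33) in the stress cohort and 1 of 6 (-0.014 to 0.13) in the diabetic one. No consistent pairing by number was seen, but such correlations cannot exclude a pairing.

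Depth limits the rarest members most, Vamp5 with 10.2 estimated counts at its lowest.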
